A study of Mus musculus with 8 samples.

Results

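Klf2, Klf4 and Klf6, the nitric oxide synthases Nos3 and Nos2, endothelin 1 (Edn1) and its converting enzyme (Ece1) were followed in single tumour endothelial cells (ECs) of mice given an intratumoural injection of PBS or cGAMP. These 7 genes were chosen by name out of 20408 genes in the expression tables, and all 7 were listed in all 8 libraries. Over all ECs Ece1 was called higher after cGAMP in both tumour models, and Nos2 and Klf6 in implanted tumours. Each of these calls was lost in some alternatives. The response of none of the 7 genes was called different between the models. Klf2, which did not pass the test over all ECs, was about 2-fold higher after cGAMP in tip-like ECs and in a cluster led by Ptn, and Edn1, low in tip-like ECs after PBS, was 10.0-fold higher there in spontaneous and 7.29-fold higher in implanted tumours. When a finer clustering split the tip-like ECs, the implanted rise of Edn1 was called in only 1 of the 2 parts. Edn1 and Ece1 were higher in implanted than in spontaneous tumours with either injection.

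Vascular endothelium reads the drag of flowing blood, and laminar shear stress raises the zinc finger transcription factors KLF2 and KLF4 through a MEK5, ERK5 and MEF2 kinase route. KLF2 and KLF4 keep endothelium quiescent and anti-inflammatory, in part by raising the endothelial nitric oxide synthase encoded by Nos3 and lowering endothelin 1, while KLF6 is a relative known from vascular injury and early stress responses. Nitric oxide relaxes vessels, whereas endothelin 1 constricts them and is cut from its precursor by the metalloprotease ECE1. Nos2 encodes the inducible synthase, best known from macrophages exposed to microbial products and interferon.

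The spontaneous tumours arose in adult MMTV-PyMT mice, in which the mouse mammary tumour virus promoter drives the polyoma middle T oncogene in mammary epithelium. The implanted tumours grew from MMTV-PyMT tumour cells that had been expanded in culture and placed in the mammary fat pads of host mice. Each model was injected with PBS or with cGAMP, a cyclic dinucleotide that activates STING, and 3 h later CD31+ CD45- cells were sorted from 2 mice a group, which gave 4 groups of 2 libraries. Per the methods the grafted cells were given in Matrigel, and mice were anaesthetised with ketamine and xylazine for procedures. The labels give the strain as C57BL/6 throughout while the methods name FVB mice, so the strain is not settled.

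The tables held 8204 cells and 97421522 UMIs (unique molecular identifiers, 1 for each captured transcript). A cell was taken as endothelial when it carried at least 1 UMI of Pecam1, the gene of the CD31 used in the sort, as 7159 cells (87.3%) did. These cells held 7451522 to 16338968 UMIs per library. Replicate 1 of implanted cGAMP stood apart, with a median of 3049 UMIs per Pecam1+ cell against 9523 to 14707.5 in the other libraries and 37.9% of these cells under 2000 UMIs. Levels are mean CPM (the UMIs of a gene scaled to 1000000 UMIs per cell, averaged over the Pecam1+ cells of a library). Differences are on the log2(mean CPM + 1) scale with their SE from 1 limma fit over all 8 libraries and 10424 genes, and a gene was called when its Benjamini-Hochberg adjusted p over all these genes was under 0.05. With 2 libraries a group these p-values measure only the spread between libraries. A mean alone does not tell fewer cells with a transcript from less transcript per cell. Shares of cells with a UMI are therefore given beside some of the levels.

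Klf2 lies on chromosome 8 (72319033 to 72321656, plus strand), Klf4 on chromosome 4 (55527143 to 55532466, minus strand) and Klf6 on chromosome 13 (5861482 to 5870394, plus strand) in the GENCODE vM21 annotation of GRCm38. Nos3 lies on chromosome 5 (24364810 to 24384474, plus strand), where its span overlaps Gm15587 and Atg9b on the minus strand, and Nos2 on chromosome 11 (78920787 to 78960254, plus strand). Edn1 lies on chromosome 13 (42301476 to 42307990, plus strand) and overlaps the antisense gene Gm47118, and Ece1 on chromosome 4 (137862237 to 137965229, plus strand) overlaps the antisense gene Gm13012. Whether strand was used in counting is not given in the sources used here, so reads of Nos3, Edn1 and Ece1 may include reads of these neighbours.

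RefSeq promoters (GRCm38.p6, the 250 bases before each transcription start) were on hand for 5 of the 7 genes, with 8 starts in all. Those of Klf2, Klf4 and Edn1 are printed because these 3 genes were raised together in tip-like ECs after cGAMP, as described further on. Each window was searched on both strands for MEF2 (CTANNNNTA), NF-kB (GGANTTTCC), ISRE (GAAANNGAA), GAS (TTCNNNGAA), the KLF CACCC box (CCACACCC) and AP-1 (TGACTCA) letters, and matches are in capitals. The Klf2 window is chr8:72318812-72319061 (plus strand), the Klf4 window chr4:55532476-55532725 (minus strand) and the Edn1 window chr13:42301226-42301475 (plus strand).
Klf2: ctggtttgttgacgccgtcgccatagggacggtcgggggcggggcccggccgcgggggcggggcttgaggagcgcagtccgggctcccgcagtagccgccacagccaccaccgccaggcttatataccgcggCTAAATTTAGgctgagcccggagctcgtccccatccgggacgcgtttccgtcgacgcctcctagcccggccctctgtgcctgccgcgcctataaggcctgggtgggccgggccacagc
Klf4: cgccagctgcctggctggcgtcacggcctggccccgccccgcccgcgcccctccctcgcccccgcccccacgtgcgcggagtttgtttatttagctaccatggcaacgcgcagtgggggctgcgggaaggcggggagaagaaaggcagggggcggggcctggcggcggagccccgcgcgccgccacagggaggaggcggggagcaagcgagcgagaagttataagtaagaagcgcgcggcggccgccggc
Edn1: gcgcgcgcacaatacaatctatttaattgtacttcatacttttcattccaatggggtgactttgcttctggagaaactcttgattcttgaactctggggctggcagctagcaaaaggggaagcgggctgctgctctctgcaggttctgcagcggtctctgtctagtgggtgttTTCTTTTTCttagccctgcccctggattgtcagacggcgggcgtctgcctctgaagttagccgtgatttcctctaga
The Klf2 window held a MEF2 match from 118 to 110 bases before the start, with an overlapping match on the opposite strand from 117 to 109, and 19.0% of 32851 windows of the same length held one. The Edn1 window held an ISRE match on the opposite strand from 77 to 69 bases before the start, against 7.13% of all windows, and the Klf4 window held none of the 6 motifs. The windows of Klf2 and Klf4 were rich in G and C (71.2% and 74%, against a median of 52.4%) and that of Edn1 was not (50.4%). The Klf6 window also held no match, and of the 4 windows of Ece1 only the one furthest downstream did, with a MEF2 and an ISRE match. These are matches of letters and say nothing of binding.

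Detection was checked against cells that should lack endothelial genes. After each cell was thinned to 2000 UMIs, which left 6158 Pecam1+ cells and 88 mural-like cells without a Pecam1 UMI, a Nos3 UMI was found in 14.7% of Pecam1+ cells and in 0 of 88 mural-like cells, which allows a share of cells with a UMI of up to 3.41% (0.917% of 109 mural-like cells without thinning). The thinned share with an Edn1 UMI was 13.9% against 1.14%, with a Klf2 UMI 61.1% against 21.6%, with a Klf4 UMI 38.2% against 7.95% and with an Ece1 UMI 62.6% against 15.9%. Klf6 did not separate these cells, with a UMI in 46.1% of Pecam1+ and 53.4% of mural-like cells. Nos2 was rare, with 2.73% of thinned Pecam1+ cells, 0 of 88 mural-like cells and 3.65% of all 274 thinned cells without a Pecam1 UMI. Only 20 epithelial-like cells could be thinned, of which 11 carried a Klf4, 13 an Ece1 and 10 a Klf2 UMI, so these shares did not separate ECs from epithelial-like cells. Without thinning the shares in Pecam1+ cells were 80.8% for Klf2, 64.9% for Klf4, 77.4% for Klf6, 48.6% for Nos3, 11.4% for Nos2, 27.4% for Edn1 and 85.7% for Ece1.

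To ask where in the vasculature each gene was expressed, 5560 Pecam1+ cells were clustered without the 7 genes and without 430 genes raised by cGAMP, into 12 clusters. Names were rebuilt from marker lists and are not labels of the study. Arterial-like (842 cells), tip-like (841), stalk-like or postcapillary venous (820), proliferative-like (415), AQP7+-like (335) and lymphatic-like (177) clusters were named, the other 6 are called by their leading gene, and of these the Ptn cluster was the largest (1081 cells). The Gkn3 cluster (519 cells) was raised in 9 arterial markers, as many as the arterial-like cluster, but was not named, since none of them was among its 10 leading genes, whereas Gja4 and Gja5 were among those of the arterial-like cluster. The Gkn3 cluster was also raised in the AQP7+ markers Cd36 and Rbp7 and in the epithelial Krt18 and Csn3. Its median depth was 7036 UMIs per cell against 10012 to 18106 in the named clusters, and mean CPM corrects for the total but not for the noise of shallow cells. The Tmem108 cluster was raised in the stalk markers Selp, Ackr1, Nr2f2, Vwf, Lrg1, Ephb4 and Sele, and in the arterial Fbln5 and Clu. The Ccl20 cluster was raised in the lymphatic Prox1, Lyve1, Pdpn, Flt4 and Mmrn1, and in the mural Rgs5 and Kcnj8. Neither was named, as none of these markers was among its 10 leading genes. Levels by cluster are given for the PBS libraries with at least 20 cells in both replicates, as a description.

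Klf2 and Klf4 shared the top of their order, the Gkn3 cluster, and Klf4 was lowest in tip-like ECs and Klf2 in tip-like and proliferative-like ECs. In spontaneous tumours Klf2 was 2950 and 3046 CPM in the Gkn3 cluster, 1175 and 1199 in arterial-like ECs, 960 and 829 in AQP7+-like ECs, 542 and 567 in stalk-like ECs, 494 and 398 in the Ptn cluster, 410 and 287 in proliferative-like ECs and 323 and 292 in tip-like ECs. Each of the first 4 of these clusters lay above the next in both replicates, whereas the Ptn, proliferative-like and tip-like ranges overlapped their neighbours. Implanted tumours had the same top, with 2581 and 3435 CPM in the Gkn3 cluster, and tip-like (390 and 387), proliferative-like (355 and 455) and Ptn clusters (445 and 692) overlapped their neighbours at the bottom. In between, the AQP7+-like, Tmem108, arterial-like and lymphatic-like clusters overlapped between 875 and 1509 CPM. Klf4 was 1362 and 1388 CPM in the Gkn3 cluster of spontaneous tumours and 1372 and 2051 in that of implanted tumours, against 63.3 and 57.8, and 66.3 and 54.8, in tip-like ECs. Thinned to 2000 UMIs, 93.7% of Gkn3 cluster cells carried a Klf2 UMI against 53.0% of tip-like ECs. Klf6 was flatter. It ranged from 856 and 528 CPM in the Gkn3 cluster to 232 and 235 in proliferative-like ECs of spontaneous tumours, with most clusters in between overlapping, and tip-like ECs (450 and 493) were not low.

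Nos3 was spread over the clusters with enough cells. A small cluster led by Ccl20 (61 cells) had a Nos3 UMI in 0 of 58 thinned cells, which allows a share with a UMI of up to 5.17% at that depth. Without thinning 8.20% of its 61 cells carried a Nos3 UMI. In spontaneous tumours Nos3 was 190 and 178 CPM in the Gkn3 cluster and 116 and 123 in arterial-like ECs, and 47.5 to 80.3 CPM in the other clusters with enough cells. In implanted tumours the Tmem108 (243 and 155), lymphatic-like (158 and 154) and Gkn3 clusters (165 and 136) overlapped, and AQP7+-like ECs were lowest with 50.2 and 32.0 CPM. Nos2 was almost the reverse. The inducible synthase was concentrated in tip-like ECs, with 62.4 and 34.4 CPM in spontaneous and 75.8 and 56.2 in implanted tumours, while the next cluster with enough cells stayed at or under 17.4 CPM. Tip-like ECs held 49.1% to 74.9% of the Nos2 UMIs of all Pecam1+ cells in a library but 8.57% to 16.4% of the cells. After thinning 11.1% of tip-like ECs carried a Nos2 UMI, against 0 of 768 stalk-like ECs and 1 of 479 cells of the Gkn3 cluster. The Ccl20 cluster had a similar thinned share, 10.3%. At a finer clustering (resolution 1.0 in place of 0.5) the tip-like cluster split into a part led by Gm38414, Gprin3 and Lcp2 (501 cells), which had 4 tip markers but was not named, and a part that kept the tip-like name (346 cells). Nos2 was 82.1 and 38.5 CPM in spontaneous and 95.2 and 68.8 in implanted PBS libraries in the first, and 22.6 and 26.5, and 42.2 and 31.3 in the second, so the higher Nos2 values lay in the cells that lost the name.

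Edn1 and Ece1, the peptide and its processing enzyme, had related but unequal orders. Edn1 in spontaneous tumours was 309 and 372 CPM in the Gkn3 cluster, 156 and 202 in stalk-like ECs and 34.4 and 70.6 in arterial-like ECs, and only 11.7 and 10.8 in proliferative-like, 6.87 and 4.79 in tip-like and 0 and 15.4 in AQP7+-like ECs. In implanted tumours the Tmem108 cluster was above the rest (548 and 758 CPM), the Gkn3 cluster (517 and 388) and stalk-like ECs (360 and 410) overlapped, and tip-like ECs were lowest with 21.9 and 19.3 CPM. Ece1 was found in 46.0% to 85.2% of the thinned cells of 11 clusters but in 13.8% of those of the Ccl20 cluster, which is under the share of mural-like cells. Its level was 767 and 606 CPM in the Gkn3 cluster and near 500 CPM in arterial-like (521 and 494) and stalk-like ECs (498 and 514) of spontaneous tumours, and 1286 and 917 in the Tmem108 cluster and 1109 and 910 in stalk-like ECs of implanted tumours. Of the clusters with enough cells, proliferative-like ECs were lowest in both models, with 269 and 266, and 349 and 330 CPM.

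**Figure D1:**
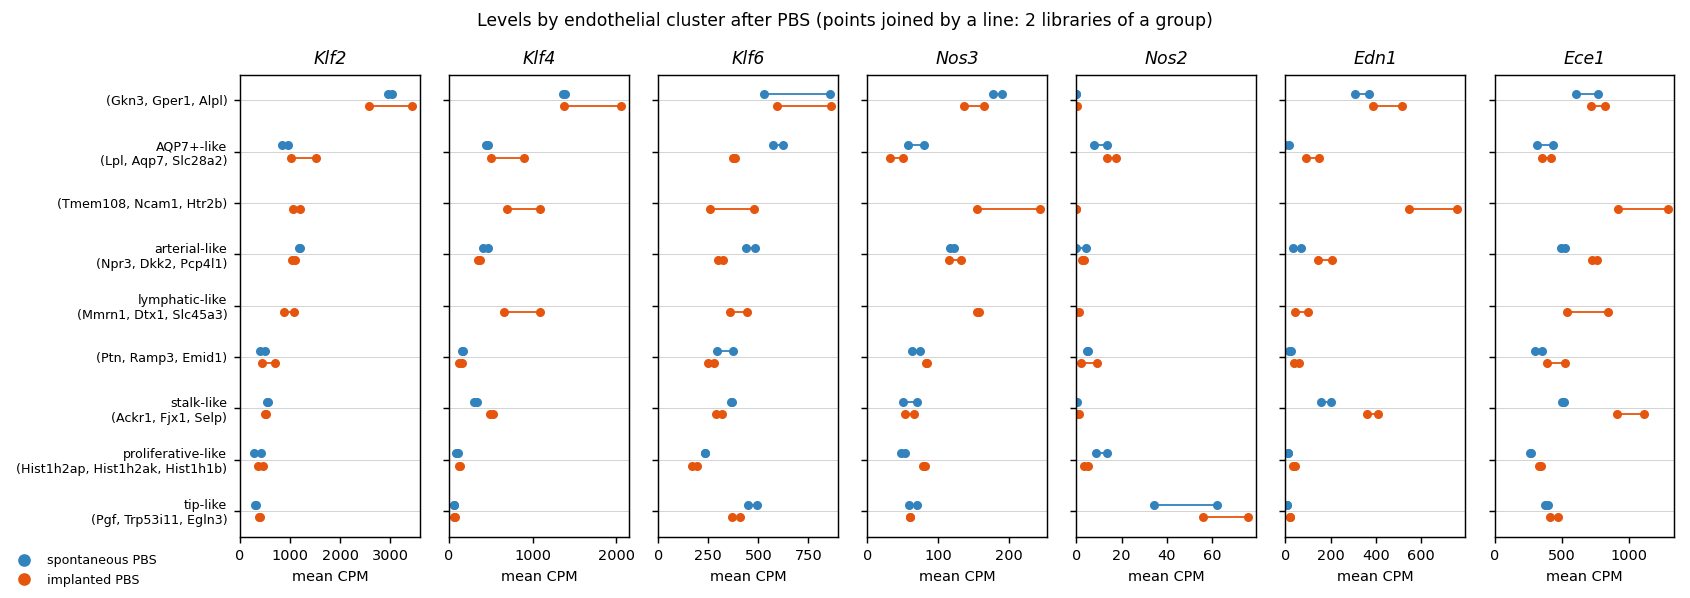
Mean CPM of each gene by endothelial cluster after PBS, in spontaneous and implanted tumours, where points joined by a line are the 2 libraries of a group. Klf2 and Klf4 peak in the Gkn3 cluster (Klf2 2581 to 3435 CPM) and Klf4 is lowest in tip-like ECs (54.8 to 66.3 CPM), where Nos2 is highest (34.4 to 75.8 CPM).

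The first comparison asked how each gene answered cGAMP in the ECs taken as a whole. In spontaneous tumours 1 of the 7 genes was called, where 12.7% of all genes tested were, and in implanted tumours 3 of 7 were, where 25.0% of all genes were. A count of this size is near the background, and the median gene moved by -0.10 in both models. Scaled by median of ratios in place of CPM, no member's call in these comparisons changed.

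Ece1 was called in both models. Its level was 414 and 399 CPM in the spontaneous PBS libraries and 575 and 542 after cGAMP, and 654 and 560 CPM in the implanted PBS libraries and 861 and 724 after cGAMP. Every cGAMP library lay above both PBS libraries of its model. The log2 difference was 0.46 ± 0.10 (adjusted p = 0.0189, limma) in spontaneous tumours, a 1.37-fold rise, and 0.38 ± 0.10 (adjusted p = 0.0216) in implanted tumours, a 1.30-fold rise. The spontaneous call was lost without any 1 of the 4 spontaneous libraries (adjusted p 0.0752 to 0.131), and the implanted call without implanted PBS 2 (0.27, adjusted p = 0.167) or implanted cGAMP 1 (0.26, adjusted p = 0.100).

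Nos2 was low, at 11.5 and 11.8 CPM in spontaneous PBS libraries and 18.2 and 16.8 after cGAMP. In implanted tumours it went from 15.1 and 9.5 CPM to 23.0 and 23.6, with no overlap between groups in either model. It rose 1.87-fold in implanted tumours (0.90 ± 0.19, adjusted p = 0.00865, limma), while the difference in spontaneous tumours was 0.55 ± 0.19 (adjusted p = 0.0954) and was called only when implanted PBS 2 was left out (adjusted p = 0.0456). The implanted call was lost without implanted PBS 2 (0.59, adjusted p = 0.0616), without cells bearing 2 or more markers of other cell types (0.92, adjusted p = 0.0514) and with the mix of vessel types held fixed (0.58, adjusted p = 0.0823). Since Nos2 also marks macrophages, the immune marker sum is set beside it. The 9 immune markers summed to 16.5 and 13.9 CPM after PBS and 40.9 and 33.7 after cGAMP in spontaneous tumours, and to 29.0 and 13.3 after PBS and 276 and 74.6 after cGAMP in implanted tumours, and their part in the Nos2 values was not tested beyond the alternative without such cells.

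Klf6 was 292 and 362 CPM in implanted PBS libraries and 392 and 457 after cGAMP, without overlap, a 1.30-fold rise (0.38 ± 0.11, adjusted p = 0.0354, limma). In spontaneous tumours its libraries overlapped, with 384 and 423 CPM after PBS and 401 and 415 after cGAMP (0.02 ± 0.11, adjusted p = 0.933). The implanted call was lost with the mix of vessel types held fixed (0.17, adjusted p = 0.218), without proliferative clusters (adjusted p = 0.0703), and without any 1 of spontaneous cGAMP 1 and 2, implanted PBS 1 or implanted cGAMP 2 (adjusted p 0.0610 to 0.231). Klf6 is also an immediate early gene, and the sum of 19 other immediate early genes, which tissue dissociation raises too, was 7059 and 9249 CPM in implanted PBS and 9191 and 11017 in implanted cGAMP libraries, against 9977 and 11228, and 11655 and 12374 in spontaneous tumours. Its part in the Klf6 values was not tested.

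The remaining genes were not called over all ECs. Klf2 was 786 and 763 CPM in spontaneous PBS libraries and 912 and 885 after cGAMP (0.21 ± 0.14, adjusted p = 0.339, limma), and 723 and 1002 in implanted PBS libraries and 841 and 1006 after cGAMP (0.11 ± 0.14, adjusted p = 0.597). Klf4 overlapped in implanted tumours, with 337 and 537 CPM after PBS and 367 and 485 after cGAMP (-0.01 ± 0.19), and was 314 and 319 CPM against 300.2 and 284 in spontaneous tumours (-0.12 ± 0.19). Nos3 lay between 71.9 and 84.6 CPM in the spontaneous libraries and between 84.5 and 117 in the implanted ones, with differences of 0.05 ± 0.14 and 0.11 ± 0.14. Edn1 differed by 0.12 ± 0.17 in spontaneous and -0.29 ± 0.17 in implanted tumours, where 155 and 194 CPM after PBS stood against 129 and 155 after cGAMP. When UMIs were summed over the library, which weights deep cells more, Klf2 (0.33, adjusted p = 0.0366) and Nos3 (0.28, adjusted p = 0.0261) were called in implanted tumours, and with a fixed mix of vessel types Nos3 was called there too (0.55, adjusted p = 0.00224).

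**Figure D2:**
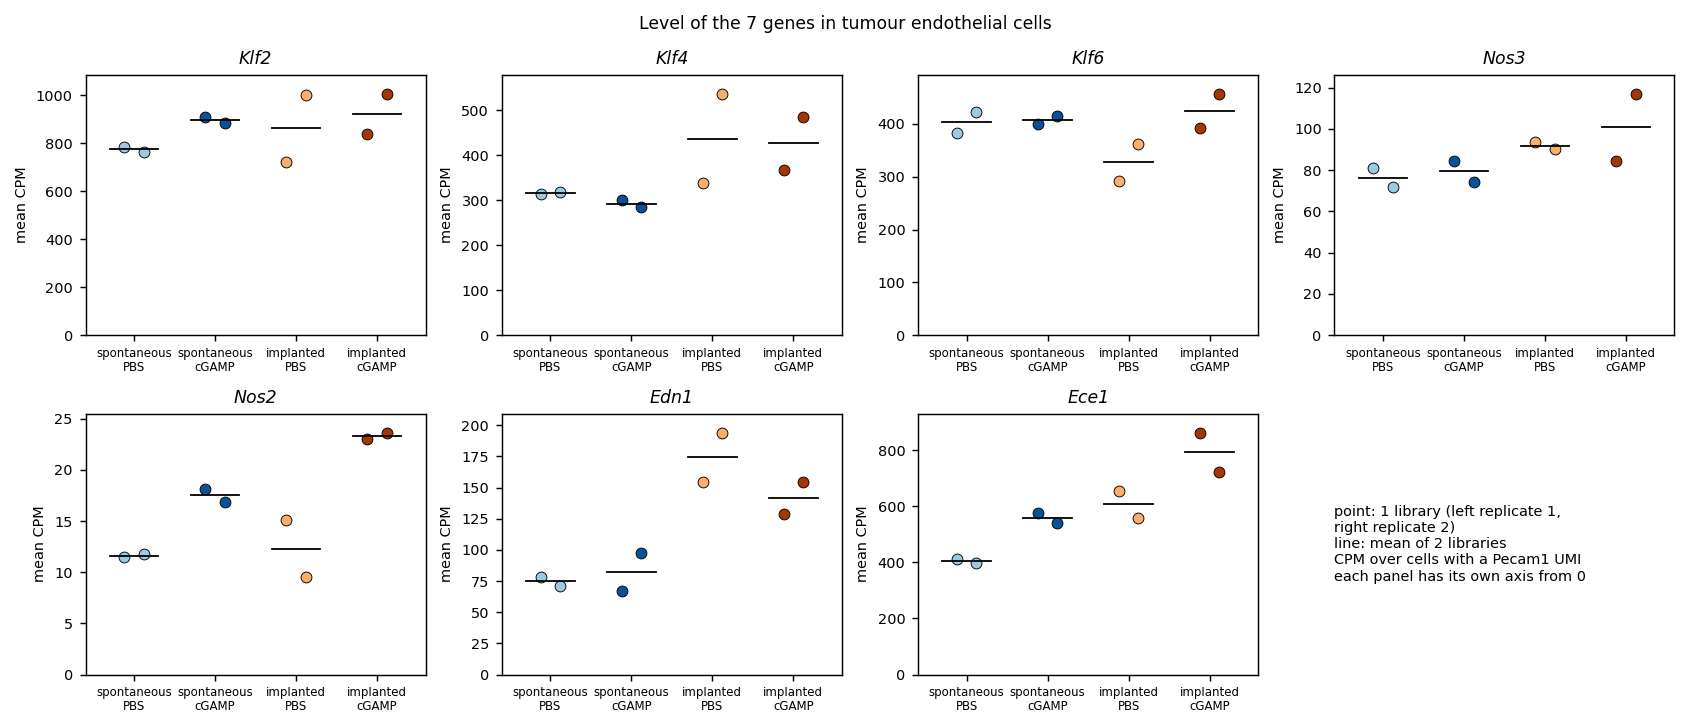
Mean CPM of each gene over Pecam1+ cells, 1 point per library and a bar for the mean of the 2 libraries of a group. Ece1 is higher after cGAMP in both models, and Edn1 separates the models, with 67.0 to 97.6 CPM in spontaneous and 129 to 194 CPM in implanted libraries.

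Klf2, Klf4, Nos3 and Edn1, which were not called over all ECs, were called within single vessel types. Klf6, called over all implanted ECs, was called in none of the 6 clusters tested. At the finer clustering it was called in a part of the spontaneous tip-like ECs, as given below. Within each of the 6 clusters with at least 20 cells in every library, the same limma fit was run over the genes of that cluster, which gave 40 tests of the 7 genes in each model. There were 6 calls in spontaneous and 14 in implanted tumours, all higher after cGAMP, in the tip-like, Ptn, arterial-like and AQP7+-like clusters. None were made in stalk-like ECs (where 3.24% and 6.40% of genes were called in spontaneous and implanted tumours) or in the Gkn3 cluster (1.51% and 1.20%). Differences of a response between clusters were not tested.

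Tip-like ECs, the migratory cells at the front of sprouts, had 3 of 7 genes called in spontaneous tumours, where 7.08% of genes were, and 4 of 7 in implanted tumours, where 16.8% were. Klf2 went from 323 and 292 CPM to 669 and 650 in spontaneous and from 390 and 387 to 634 and 803 in implanted tumours, with no overlap. It rose by 1.10 ± 0.13 (adjusted p = 1.46e-05, limma) and by 0.87 ± 0.13 (adjusted p = 0.00015), and both calls held in every alternative run within clusters. Klf4 went from 63.3 and 57.8 CPM to 93.8 and 96.9 in spontaneous (0.65 ± 0.19, adjusted p = 0.0449) and from 66.3 and 54.8 to 133 and 179 in implanted tumours (1.34 ± 0.19, adjusted p = 0.000107), of which the implanted call held in every alternative and the spontaneous one was lost without any 1 spontaneous library (adjusted p 0.106 to 0.226) and in both parts of the finer clustering (adjusted p 0.161 and 0.235). After cGAMP tip-like Klf2 lay above every stalk-like value after PBS (495 to 567 CPM). Against the stalk-like values after cGAMP it overlapped in spontaneous tumours (696 and 632) and lay above both in implanted tumours (526 and 600). Tip-like Klf4 stayed under the stalk-like values after PBS (294 to 524) and after cGAMP (258 to 417).

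Edn1 was the gene with the widest change in tip-like ECs. In spontaneous tumours it was 6.87 and 4.79 CPM after PBS, from 10 and 6 UMIs in 5 of 108 and 2 of 76 cells, and 79.6 and 55.6 CPM after cGAMP, from 181 and 125 UMIs in 26 of 110 and 23 of 103 cells. In implanted tumours it was 21.9 and 19.3 CPM after PBS, from 77 and 39 UMIs in 18 of 127 and 12 of 110 cells, and 78.9 and 308 after cGAMP. The difference was 3.32 ± 0.43 in spontaneous (adjusted p = 5.64e-05, limma) and 2.87 ± 0.43 in implanted tumours (adjusted p = 0.000205). More cells carried the transcript, and single cells carried up to 42 UMIs in spontaneous and 78 in implanted cGAMP libraries. The implanted value turned on its libraries, since it was 1.89 without implanted cGAMP 2 (adjusted p = 0.00175). It also turned on the clustering. In the Gm38414 part implanted Edn1 was 18.4 and 11.5 CPM after PBS and 19.3 and 28.6 after cGAMP (0.66 ± 0.61, adjusted p = 0.605), and in the part that kept the tip-like name 19.9 and 14.7 against 136 and 466 (3.80 ± 0.43, adjusted p = 2.92e-05). The spontaneous call held in both parts (3.89 ± 0.61 and 3.18 ± 0.43). The second of these fits was added after seeing the data. Ece1 rose by 0.44 ± 0.12 in implanted tip-like ECs (adjusted p = 0.0168), a call lost without implanted PBS 2 or implanted cGAMP 2 and in the Gm38414 part. In the part that kept the tip-like name Ece1 was called in spontaneous (0.66 ± 0.16, adjusted p = 0.0235, limma) and implanted tumours (0.58 ± 0.16, adjusted p = 0.0319). Klf6 was called in that part in spontaneous tumours (0.75 ± 0.18, adjusted p = 0.0235) but not in implanted ones (0.33 ± 0.18, adjusted p = 0.313). Nos2 and Nos3, by contrast, were not called in the tip-like cluster. Nos2 was 62.2 and 70.5 CPM after cGAMP in spontaneous and 78.0 and 79.7 in implanted tip-like ECs, and the spontaneous values overlapped those after PBS.

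The Ptn cluster, the largest, had 2 of 7 genes called in spontaneous tumours, where 5.87% of genes were, and 6 of 7 in implanted tumours, where 14.6% were. Klf2 went from 494 and 398 CPM to 896 and 872 in spontaneous (0.99 ± 0.17, adjusted p = 0.00127, limma) and from 445 and 692 to 878 and 1151 in implanted tumours (0.86 ± 0.17, adjusted p = 0.0032). The spontaneous call held in every alternative, while the implanted one was lost without implanted PBS 1 (0.54, adjusted p = 0.0708). Nos3 went from 83.4 and 84.6 CPM to 163 and 216 in implanted tumours (1.15 ± 0.17, adjusted p = 0.00019), a call that held in every alternative, and from 74.1 and 63.7 to 110 and 85.5 in spontaneous tumours (0.49 ± 0.17, adjusted p = 0.117). This was the only cluster in which Klf2, Klf4 and Nos3 were all called. Ece1 rose in both models, by 0.62 ± 0.14 and 0.56 ± 0.14, and Klf4 by 0.66 ± 0.15 in implanted tumours (adjusted p = 0.00677), but these calls did not hold without spontaneous PBS 1 or either spontaneous cGAMP library for the first, implanted PBS 2 or cGAMP 2 for the second and implanted PBS 1 or cGAMP 2 for the third. Edn1 (0.85 ± 0.26, adjusted p = 0.0358) and Nos2 (1.52 ± 0.50, adjusted p = 0.0497, from 9.23 and 2.22 CPM to 18.6 and 12.9) were called in implanted tumours near the threshold, and both calls were lost in some alternatives.

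Arterial-like ECs had Ece1 called in spontaneous tumours (0.48 ± 0.10, adjusted p = 0.0102, limma), 1 of 7 genes against 4.52% of all genes. In implanted tumours 3 of 7 were called against 15.4%, namely Ece1 (0.50 ± 0.10, adjusted p = 0.00331), Klf2 (0.42 ± 0.12, adjusted p = 0.0256) and Nos3 (0.58 ± 0.16, adjusted p = 0.0206). Arterial-like Klf2 there went from 1034 and 1092 CPM to 1625 and 1237. All 4 arterial-like calls were lost without at least 1 library of their own model, that of spontaneous Ece1 without spontaneous PBS 2 or cGAMP 1 and that of implanted Ece1 without implanted PBS 2 (adjusted p 0.0511 to 0.156), that of Klf2 without implanted PBS 1, PBS 2 or cGAMP 1 and that of Nos3 without implanted PBS 1, PBS 2 or cGAMP 2 (adjusted p 0.0565 to 0.212). In AQP7+-like ECs, the lipid-handling capillary cells, none of 7 genes was called in spontaneous tumours (1.74% of all genes) and Ece1 alone in implanted tumours (2.28%), from 423 and 352 CPM to 863 and 812 (1.12 ± 0.19, adjusted p = 0.00078, and 0.0597 without implanted PBS 2). The Gkn3 cluster, where Klf2 was highest, ran the other way without passing the test. Its Klf2 was 2950 and 3046 CPM after PBS and 2358 and 1724 after cGAMP in spontaneous tumours (-0.57 ± 0.17, adjusted p = 0.142) and 2581 and 3435 against 2335 and 2545 in implanted tumours (-0.29 ± 0.17, adjusted p = 0.85). Stalk-like ECs of implanted tumours had lower values of Edn1 (-0.88 ± 0.27, adjusted p = 0.0748) and Klf4 (-0.62 ± 0.18, adjusted p = 0.0623), neither of them called.

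Other quantities moved in the same clusters. The sum of immediate early genes in tip-like ECs was 7268 and 7620 CPM after PBS and 10247 and 10414 after cGAMP in spontaneous tumours, and 5131 and 5888 against 6907 and 8449 in implanted tumours. The summed tip markers were 2100 and 2360 CPM against 2448 and 2048 in spontaneous tumours, and 2244 and 1611 against 3481 and 4351 in implanted tumours. In the Ptn cluster the immediate early sum was 7407 and 9628 against 10244 and 10247 in spontaneous and 4754 and 5050 against 6583 and 7114 in implanted tumours, and implanted tip markers there went from 541 and 571 CPM to 1049 and 1233. The part of these shifts, or of a different mix of cells within a cluster, in the values of Klf2, Klf4, Nos3 and Edn1 was not tested.

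**Figure D3:**
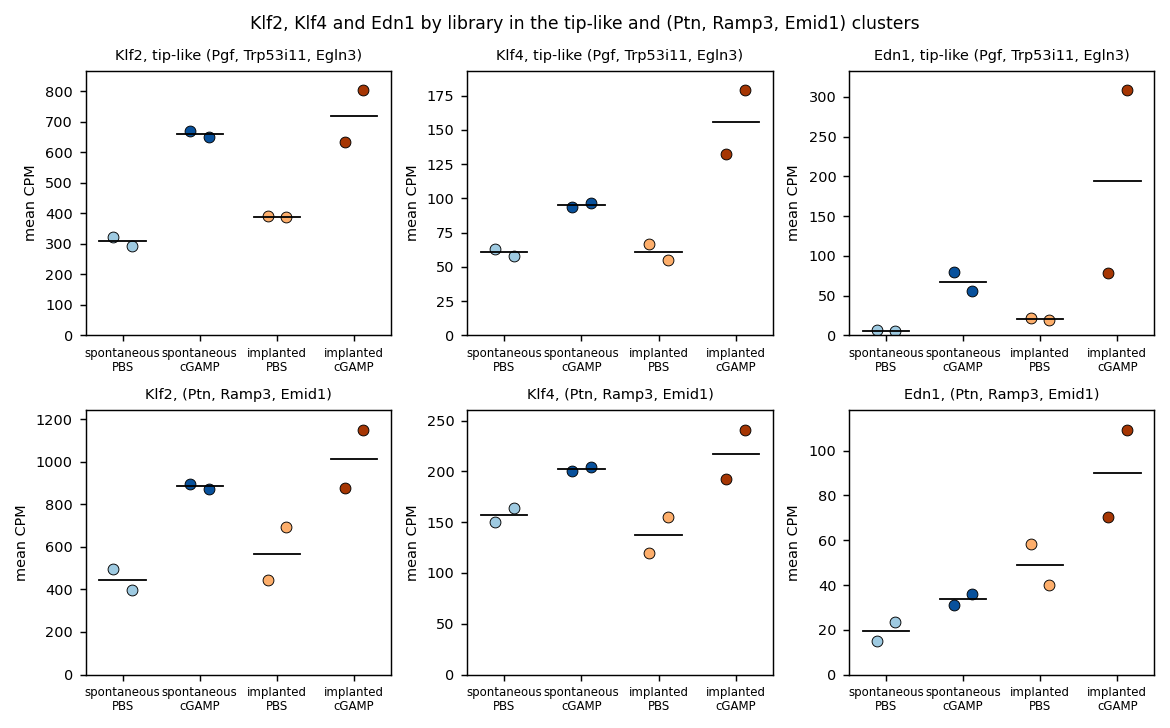
Mean CPM of Klf2, Klf4 and Edn1 by library in the tip-like and Ptn clusters, 1 point per library. Klf2 is higher in every cGAMP library than in every PBS library of the same model, and tip-like Edn1 is 4.79 to 21.9 CPM after PBS and 55.6 to 308 after cGAMP.

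Whether the models answered differently was tested as the difference of the responses, implanted minus spontaneous. None of the 7 genes was called, over all ECs or within any of the 6 clusters, and 0.662% of all genes were over all ECs. Edn1 had a difference of -0.41 ± 0.25 (adjusted p = 0.510, limma), Klf6 one of 0.36 ± 0.16 (adjusted p = 0.367), Nos2 one of 0.35 ± 0.27 (adjusted p = 0.627) and Ece1 one of -0.07 ± 0.14 (adjusted p = 0.865), and the others lay between -0.10 and 0.10. So the calls of Nos2 and Klf6 in implanted tumours alone are not shown to be particular to that model. At an unadjusted p under 0.05, 1400 genes passed in this comparison and 69 were called.

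The second comparison set implanted against spontaneous tumours. After PBS, 2 of the 7 genes were called, where 7.83% of all genes were, and after cGAMP also 2, where 13.8% were. They were Edn1 and Ece1 both times. Edn1 was 78.2 and 71.2 CPM in spontaneous PBS and 155 and 194 in implanted PBS libraries, a 2.30-fold difference (1.20 ± 0.17, adjusted p = 0.00392, limma) that was called in every alternative. After cGAMP it was 67.0 and 97.6 against 129 and 155 CPM, 1.74-fold (0.80 ± 0.17, adjusted p = 0.0185), a call lost without spontaneous cGAMP 1 (0.53, adjusted p = 0.106), without implanted cGAMP 2 (0.67, adjusted p = 0.0589) and without cells bearing 2 markers of other cell types (0.39, adjusted p = 0.308). Ece1 was 1.49-fold higher in implanted tumours after PBS (0.57 ± 0.10, adjusted p = 0.0103) and 1.41-fold higher after cGAMP (0.50 ± 0.10, adjusted p = 0.0137). The first was lost without spontaneous PBS 2 or implanted PBS 1 (adjusted p 0.0920 and 0.0875), the second without spontaneous cGAMP 1, spontaneous cGAMP 2 or implanted cGAMP 1 (adjusted p 0.0567, 0.121 and 0.0508).

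The KLF genes were closer between the models. Klf4 had the widest gap, 337 and 537 CPM in implanted against 314 and 319 in spontaneous PBS libraries (0.43 ± 0.19, adjusted p = 0.209, limma) and 367 and 485 against 300.2 and 284 after cGAMP (0.53 ± 0.19, adjusted p = 0.0952). The PBS value rested on implanted PBS 2, as it was 0.76 (adjusted p = 0.0362) without implanted PBS 1. Klf6 was lower in implanted tumours after PBS (-0.31 ± 0.11, adjusted p = 0.131) with no overlap of libraries, but not called. Nos3 was 81.0 and 71.9 against 93.6 and 90.2 CPM after PBS (0.27 ± 0.14, adjusted p = 0.296) and 84.6 and 74.2 against 84.5 and 117 after cGAMP (0.32 ± 0.14, adjusted p = 0.166), and the cGAMP value was called with a fixed mix of vessel types and without implanted cGAMP 1, among others (adjusted p 0.00511 to 0.0212). Klf2 differed by 0.14 after PBS and 0.03 after cGAMP, within the spread of the libraries.

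The Edn1 gap after PBS was found in 5 of the 6 clusters. It was 1.30 ± 0.26 in the Ptn cluster (adjusted p = 0.00427, limma, where 6.62% of genes were called), 1.79 ± 0.27 in arterial-like ECs (adjusted p = 0.000478, 3.45%), 1.68 ± 0.43 in tip-like ECs (adjusted p = 0.0389, 3.44%) and 1.11 ± 0.27 in stalk-like ECs (adjusted p = 0.0323, 4.31%). AQP7+-like ECs held 0 and 15.4 CPM in spontaneous and 90.7 and 150 in implanted tumours (adjusted p = 0.000648, 0.927%). The Gkn3 cluster, with 309 and 372 against 517 and 388 CPM, did not pass (0.40 ± 0.29, adjusted p = 0.918, 0.0763%). Ece1 was higher in implanted stalk-like (0.99 ± 0.13, adjusted p = 0.000293) and arterial-like ECs (0.55 ± 0.10, adjusted p = 0.00449), and Klf6 was lower in implanted arterial-like ECs (-0.56 ± 0.13, adjusted p = 0.017). The Tmem108 cluster, in which Edn1 was high, had 48 and 70 cells in implanted PBS libraries and 18 and 10 in spontaneous ones, and was not among the 6.

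**Figure D4:**
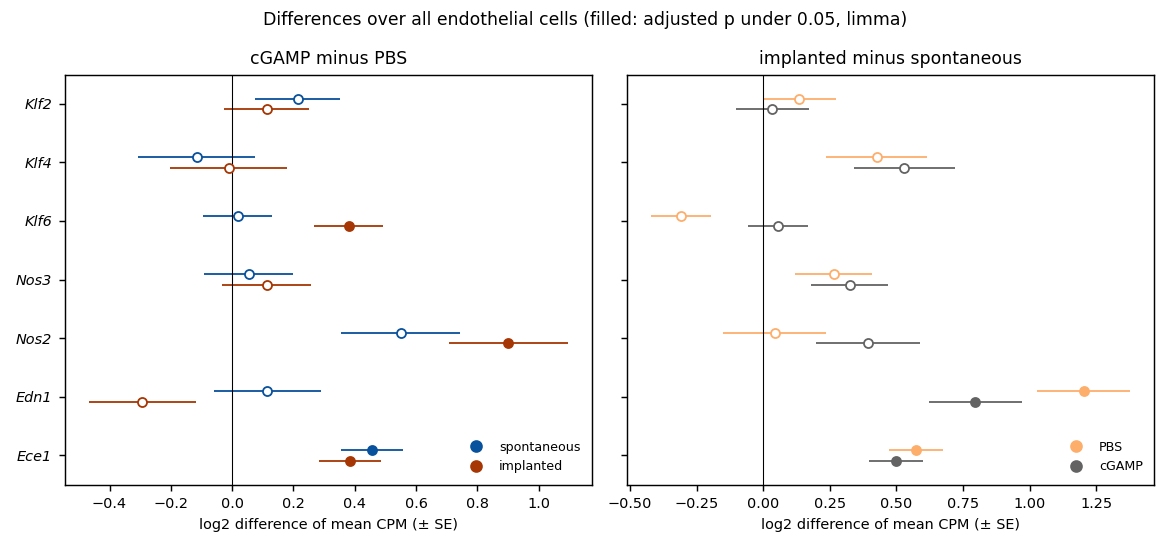
Log2 differences (± SE) of the 7 genes over all Pecam1+ cells, with the cGAMP responses of both models in 1 panel and the differences between models after PBS and cGAMP in the other, where filled points have an adjusted p under 0.05 by limma. Edn1 is furthest from 0 between the models (1.20 after PBS) and Nos2 in the implanted response (0.90).

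The genes around the 7 were read from lists of upstream and downstream partners. Counts of called genes in each list stand beside those over all 10424 genes. After cGAMP 531 of all genes rose and 791 fell in spontaneous tumours, and 896 rose and 1713 fell in implanted tumours. The lists are short, so their counts are not read as results about them. None of 18 flow sensing genes of the MEK5, ERK5 and MEF2 route rose after cGAMP. In spontaneous tumours 4 fell and in implanted tumours 6, with medians of -0.14 and -0.18 against -0.10 over all genes. Heg1, a membrane partner of the CCM complex that restrains this route, fell by 0.57 ± 0.08 (adjusted p = 0.00196, limma) in spontaneous and by 0.95 ± 0.08 in implanted tumours (adjusted p = 5.8e-05). Krit1, a CCM protein, fell by 0.45 ± 0.11 in spontaneous tumours, a call lost in several alternatives, and the G protein subunit Gnaq fell by 0.44 ± 0.08 and 0.47 ± 0.08, the first lost without spontaneous PBS 2 or cGAMP 2. Plxnd1, a semaphorin receptor that also senses flow, fell by 0.65 ± 0.08 in implanted tumours. Of 8 other KLF genes tested none rose, 1 fell in spontaneous and 3 in implanted tumours, among them Klf13 (-0.37 ± 0.07, adjusted p = 0.0045) and Klf9 (-0.64 ± 0.18, adjusted p = 0.0317), the latter lost in several alternatives.

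Of 19 tested genes known to respond to flow, 4 rose and 4 fell in spontaneous tumours and 7 rose and 6 fell in implanted tumours. Among those that rose most were chemokine genes better known from inflammation. Ccl2, a chemokine for monocytes, went from a mean of 10.3 CPM to 166 and 71.4 in spontaneous (3.32 ± 0.38, adjusted p = 0.00047, limma) and from 11.3 and 10.8 to 391 and 209 in implanted tumours (4.58 ± 0.38, adjusted p = 5.69e-05). The chemokine Cx3cl1 rose by 1.37 ± 0.25 in spontaneous tumours. Between the models after PBS, the adhesion molecule Vcam1 was higher in implanted tumours (1.95 ± 0.24, adjusted p = 0.00178), as was the arterial gap junction gene Gja5 (0.82 ± 0.14), and Cyp1b1, a cytochrome raised by laminar flow, was lower (-2.80 ± 0.58). The Gja5 call was lost without spontaneous PBS 2 or implanted PBS 1 (adjusted p 0.0798 and 0.0779) and that of Cyp1b1 without any 1 PBS library (adjusted p 0.0515 to 0.160). Cyp1b1 rose with cGAMP in implanted tumours (3.30 ± 0.58), from a PBS level of 1.03 CPM to a mean of 23.4 with an SD of 19.6. It was a leading gene of the Ccl20 cluster. That cluster held 11 and 9 cells in spontaneous PBS, 5 and 3 in spontaneous cGAMP, 0 and 4 in implanted PBS and 11 and 18 in implanted cGAMP libraries. The part of this cluster in the Cyp1b1 values was not tested. Angpt2 had 1 of the 2 called differences of responses in the lists (2.10 ± 0.26, adjusted p = 0.0210), lost without spontaneous PBS 2 or either spontaneous cGAMP library (adjusted p 0.0625 to 0.154).

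The nitric oxide list covered cofactors, partners and substrate supply of the synthases. Gch1, which makes the first step toward the synthase cofactor tetrahydrobiopterin, was 68.9 and 65.3 CPM in spontaneous PBS libraries and 87.0 and 93.3 after cGAMP (0.42 ± 0.10, adjusted p = 0.0306, limma), and 70.3 and 73.3 against 117 and 142 in implanted tumours (0.84 ± 0.10, adjusted p = 0.000529). Its feedback inhibitor Gchfr fell by 1.04 ± 0.15 and by 0.94 ± 0.15. Nosip, a partner of the endothelial synthase, rose by 0.97 ± 0.12 in spontaneous tumours, and Ddah1, which degrades an endogenous synthase inhibitor, fell by 0.84 ± 0.17 there. The spontaneous calls of Gch1 and Ddah1 were lost without any 1 spontaneous library (adjusted p 0.0940 to 0.171 for Gch1, 0.0573 to 0.0987 for Ddah1). Of the 23 tested genes of this list 2 rose and 5 fell in spontaneous and 3 rose and 10 fell in implanted tumours, with medians of -0.15 and -0.17. Ddah1 was 2.57-fold higher in implanted tumours after PBS (1.36 ± 0.17, adjusted p = 0.00178). Cygb, a globin that consumes nitric oxide, fell by 1.67 ± 0.35 in implanted tumours and gave the other called difference of responses (-2.80 ± 0.49, adjusted p = 0.0460), which was lost in 13 alternatives. It is also known from pericytes and fibroblasts, and the values of the mural markers are given with Ednra. Nostrin, which traffics the synthase, was 32.4 to 69.7 CPM and not called in any comparison, and the arginases Arg1 and Arg2 were under the filter on low values.

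Of the other endothelin genes 5 of 10 were tested. Ednrb, the endothelial receptor that clears endothelin, was 287 and 376 CPM in spontaneous PBS and 139 and 159 in implanted PBS libraries, 0.455-fold (-1.14 ± 0.15, adjusted p = 0.00242, limma), and 268 and 283 against 113 and 149 after cGAMP (-1.08 ± 0.15, adjusted p = 0.00364). The receptor was lower in the model in which the ligand was higher. Ednra, the receptor of smooth muscle and pericytes, was 1.42 and 5.87 CPM in spontaneous PBS libraries and 18.9 and 13.9 after cGAMP, and 0.292 and 0.195 against 5.65 and 3.37 in implanted tumours, called both times (2.08 ± 0.48, adjusted p = 0.0221, and 2.12 ± 0.48, adjusted p = 0.0105). The first call was lost without spontaneous PBS 1 or either spontaneous cGAMP library (adjusted p 0.0916 to 0.158) and the second without implanted PBS 2 (adjusted p = 0.0609). The 7 mural markers summed to 213 and 568 CPM after PBS and 860 and 644 after cGAMP in spontaneous tumours, and to 226 and 212 after PBS and 367 and 176 after cGAMP in implanted tumours, and Ednra was under the filter once clusters of other cell types were left out.

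The immediate early list, read beside the KLF genes, had 2 of 18 tested genes higher after cGAMP in spontaneous tumours, Atf3 (0.59 ± 0.16) and Fosb (0.56 ± 0.14), both lost in several alternatives. In implanted tumours 7 rose, among them Fosb (0.77 ± 0.14, adjusted p = 0.00388, limma), and 2 fell, the heat shock genes Hspa1a (0.501-fold) and Hspa1b (0.448-fold, -1.16 ± 0.20). After PBS 6 were lower and 1 higher in implanted tumours, where 463 and 353 of all 10424 genes were. Furthest down were Hspa1a (-1.04 ± 0.13), Hspa1b (-1.26 ± 0.20) and Jund (-0.69 ± 0.12), of which Jund was lost without spontaneous PBS 2 or implanted PBS 1.

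The genes whose levels over the 12 clusters in PBS libraries were most like those of each gene were found by Pearson's r of log2 levels among 11159 genes. The clusters share libraries and differ in depth and number of cells, so r is a description. For Klf2 they were Gata2 (0.94), an endothelial transcription factor, Zrsr1 (0.92) and Tmem100 (0.91), an arterial gene. For Klf4 they were Csrnp1, Aldh2 and Rasgrf2 (0.93 to 0.95), and for Klf6 Ppme1, Slc25a1 and Amn1 (0.84 to 0.87). Among those nearest to Nos3 were Vps16 and Pdlim7 (both 0.94), and Nos2 was nearest to Gna12, Ntmt1 and Tnfaip8l1 (0.89 to 0.92). Edn1 was nearest to Flii, Lmcd1 and Avpi1 (0.93 to 0.95), and Ece1 to Atp1b3, Pkn3 and Crtc1 (0.95 to 0.98).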

How the data were processed

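Libraries were made with the 10x 3′ v3 chemistry, and their groups were taken from the labels. Per the labels, the authors used Cell Ranger 3.0.0, Seurat 3.1.1 and the mm10 assembly. They deposited natural log values per cell, ln(1 + UMIs × 10000 / total UMIs of the cell), from which whole UMIs were worked back for 100% of values within a tolerance of 0.01. How the deposited cells were chosen is not settled, since the supplement lists other cell numbers.

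A count model was not used, as the tables hold normalised values. The level of a gene was its mean CPM over Pecam1+ cells of a library, and limma 3.58.1 (moderated with a mean trend) was run on log2(mean + 1) for the 10424 genes that reached 5 CPM in 2 or more libraries, all 8 libraries in 1 fit, and p-values were adjusted by Benjamini-Hochberg over all of them. Within a cluster the same fit was used. Depth was 7451522 to 16338968 UMIs per library in these cells, and intervals and limits of shares cover counting error only. Clusters came from Seurat 5.3.0 (2500 features, 30 principal components, resolution 0.5) after removal of clusters in which under 75% of cells carried Pecam1. The clusters removed were mural-like (365 cells), epithelial-like (225), lymphatic-like (327) and an unnamed shallow one led by Csn3 (1493). They are called clusters of other cell types here, though the lymphatic-like one was raised in 7 lymphatic markers, beside the immune Cd52, Tyrobp, Lyz2 and Fcer1g. Lymphatic ECs may thus be among the cells removed. No doublet caller was run, and cells with 2 or more markers of another cell type were left out as an alternative. Of 8197 barcodes 7 occurred in more than 1 library.

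The members and the gene lists were chosen with earlier results of these data known. All 7 members are named, and from each list at most the 3 called genes with the largest difference and a group mean of at least 10 CPM, plus Ednra, Ednrb, Gch1, Arg1, Arg2 and Nostrin; some genes that meet these rules are not reported here. The fit was tested on simulated data. Alternatives covered the pseudocount, filter, scaling, cells used, mix of vessel types, replicate number, clustering and each library left out. No numeric column was left unused (0).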

Additional observations from a re-analysis of the deposited data

Results flagged for a closer look

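Both results here came from cells without a Pecam1 UMI, which the comparisons do not use. In implanted tumours Nos2 was higher in these cells after cGAMP than after PBS. There were 14 and 5 Nos2 UMIs in 496 and 50 cells after cGAMP, against 1 and 0 in 99 and 93 cells after PBS. The mean share of UMIs was 10.2-fold higher, and the ratio of the pooled counts was 7.69 with an exact 95% interval of 1.22 to 319, which covers counting error only. Ece1 in the same cells was 601 and 335 UMIs in 1000000 after cGAMP against 219 and 227 after PBS. Its mean was 2.10-fold higher, and the ratio of the pooled counts was 2.52 with an interval of 1.97 to 3.27. The 496 cells belong to the shallow replicate 1 of implanted cGAMP, whose part in both values was not tested. Single libraries could not be tested as outliers in groups of 2.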

How the results depend on the processing

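Of the 735 values of the 7 genes under 21 alternatives in 5 comparisons, 643 kept their direction and their side of the threshold. Without a filter on low values, 0 members were called in the spontaneous response, 1 in the implanted response, 1 between the models after PBS and 0 after cGAMP, against 1, 3, 2 and 2, with more genes in the adjustment. With UMIs summed per library 5 were called in the implanted response and 4 between the models after cGAMP. Without proliferative clusters 1 was called in the implanted response. Between the models after cGAMP 4 were called without clusters of other cell types and with all cells of endothelial clusters (added after seeing the data), and 1 without cells with 2 markers of other types. The number of all genes called also changed between alternatives, over the ranges given below. The member counts are not set against it and are not read as results about the members. With 1 library left out the counts were 0 to 2, 1 to 3, 1 to 2 and 0 to 3 in the same order. The difference of the responses gave 0 members in all 21 alternatives.

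Genes of the pathway lists called in the spontaneous response were 23, and 10 without the filter (7 to 29 with 1 library left out). For the difference of the responses they were 2, and 0 without the filter, 1 with a pseudocount of 5 CPM or all deposited cells, 4 with summed UMIs, without clusters of other types, in cells of at least 2000 UMIs or in all cells of endothelial clusters, and 5 with a fixed mix of vessel types (0 to 8). Between the models after PBS they were 17, and 6 without the filter, 26 without clusters of other types and 29 with a fixed mix (5 to 28). After cGAMP they were 28, and 14 without the filter or without cells with 2 markers of other types (7 to 32). Over all genes the called counts ran from 448 to 2839 in the spontaneous and 1265 to 3722 in the implanted response, 0 to 205 for their difference, 212 to 1317 between the models after PBS and 156 to 2263 after cGAMP.

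Within vessel types there were 20 calls, 11 at resolution 1.0, read from the finer cluster sharing most cells (1 of them a lower Klf4 in stalk-like ECs) and 12 to 22 with 1 library left out. Leaving out clusters of other cell types changes nothing there, since the vessel-type clusters were made without them. They were not free of such cells, as 29 of the clustered cells formed a mural-like cluster at resolution 1.0. It held 2 and 5 cells in spontaneous PBS, 7 and 12 in spontaneous cGAMP and 1 or 0 in each implanted library. The part of these cells in the values was not tested. The share of all genes called in these alternatives is not set beside the counts of calls. The calls that held throughout were Klf2 in tip-like ECs of both models and in the spontaneous Ptn cluster, and, 1 model each, Klf4 (implanted) and Edn1 (spontaneous) in tip-like ECs and Nos3 in the implanted Ptn cluster. The spontaneous tip-like call of Klf4 was lost without any 1 spontaneous library. Shares with a UMI moved with depth, as given for Klf2 (80.8% unthinned), Klf4 (64.9%), Klf6 (77.4%), Nos3 (48.6%), Nos2 (11.4%), Edn1 (27.4%) and Ece1 (85.7%).

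Of the genes named in the text, the values that changed sign were small and not called, apart from Cygb between the models after cGAMP (0.0028 without cells with 2 markers of other types). The cause was not tested. In the spontaneous response Klf6 was -0.081 without cells with 2 other markers, -0.021 without proliferative clusters and -0.042 with a fixed mix, and Nos3 -0.0054 with a fixed mix. In the implanted response Edn1 was 0.023 with a fixed mix, and Klf4 was 0.091 with median-of-ratios scaling, 0.18 with summed UMIs, 0.073 without clusters of other types and in cells of at least 2000 UMIs, 0.0084 without cells with 2 other markers and 0.043 with all cells of endothelial clusters. The difference of the responses of Klf2 was 0.040 with summed UMIs, 0.031 without clusters of other types and with all cells of endothelial clusters and 0.0068 with a fixed mix, and that of Ece1 was 0.025 in cells of at least 2000 UMIs. Between the models after PBS Nos3 was -0.038 with a fixed mix, and Nos2 -0.035 with all deposited cells, -0.063 without clusters of other types, -0.27 without cells with 2 other markers and -0.16 with all cells of endothelial clusters. After cGAMP Klf6 was -0.048 with summed UMIs and -0.098 with a fixed mix.

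With 1 library left out, the spontaneous response ran from -0.051 to 0.088 for Klf6, from -0.040 to 0.15 for Nos3 and from -0.15 to 0.38 for Edn1, and the implanted response from -0.12 to 0.35 for Klf2, from -0.34 to 0.32 for Klf4 and from -0.12 to 0.35 for Nos3. The difference of the responses ran from -0.34 to 0.13 for Klf2, from -0.23 to 0.44 for Klf4, from -0.17 to 0.29 for Nos3 and from -0.20 to 0.051 for Ece1. Between the models after PBS the range was -0.10 to 0.37 for Klf2 and -0.27 to 0.35 for Nos2, and after cGAMP -0.095 to 0.16 for Klf2 and -0.056 to 0.16 for Klf6.

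Libraries with the same replicate number did not deviate together (correlations from -0.22 to 0.13), so the number does not pair them. With the replicate number as a block, 1, 3, 0, 2 and 2 members were called in the 5 comparisons, as without it, and of the other genes named Cygb in the difference of the responses (adjusted p = 0.0593, limma) and Ednra between the models after cGAMP (adjusted p = 0.0618) lost their calls. With the numbers of spontaneous PBS crossed, an alternative added after seeing the data, the member counts were again 1, 3, 0, 2 and 2. Depth limits Nos2 most, with 93 to 362 UMIs per library.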
